A study of Mus musculus with 6 samples.

Results

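The tumor necrosis factor (TNF) superfamily was examined in ectopic endometriotic lesions of mice, ligands beside receptors. Members were taken by symbol: every gene whose name begins with Tnfsf or Tnfrsf and a digit, together with Tnf, Lta, Ltb, Ltbr, Fas, Fasl, Cd27, Cd70, Cd40, Cd40lg, Eda2r and Edar. This gave 44 of the 56884 genes in the count table, of which 17 were ligand genes, 26 were receptor genes and 1, Tnfsf13os, was a non-coding antisense transcript that is kept apart from both. The rule itself uses no measured value.

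Ligands of the superfamily are trimeric proteins, mostly anchored in the membrane of immune cells, and some are shed as soluble cytokines. Their receptors either carry a death domain that can recruit caspases, or bind TRAF adapter proteins that lead to NF-kappaB and MAP kinase signalling, or act as decoys that hold the ligand without a signal. In endometriotic lesions TNF is known as a macrophage cytokine of the inflamed peritoneal environment, while Cd40, Tnfrsf9 and their relatives are known as costimulatory receptors of lymphocytes and antigen-presenting cells.

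RNA of 3 WT and 3 Dnmt3a KO lesions was sequenced, with 1 library for each lesion. WT lesions came from female donors with floxed Dnmt3a alleles (Dnmt3a f/f), and KO lesions from female donors of the same age with the floxed alleles and Cre recombinase expressed from the progesterone receptor locus (Dnmt3a f/f:PR-Cre/+). Both groups were thus floxed, all donors had been given estradiol, and all recipients were female mice with intact Dnmt3a that carried an estrogen pellet. According to the labels, pieces of uterine horn were brought into the peritoneal cavity of the recipients and lesions were taken at 4 weeks, while the methods describe an endometrial piece sutured to the mesentery and an earlier day of collection. Cre acts only in cells with progesterone receptor, so blood vessels and immune cells that the recipient supplied kept Dnmt3a in both groups. The libraries were stranded and made from whole lesions, in which fewer cells of a type and less RNA per cell cannot be told apart.

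NF-kappaB is known both to act downstream of many of these receptors and to bind promoters of family members, so promoter windows of members are shown before the values. RefSeq gave 37 promoters for 33 of the 43 ligand and receptor genes on GRCm38.p6. The 250 bases before the start were searched on both strands for the kappaB motif bound by NF-kappaB, in the form GGG, any 2 letters and TTTCC. A match was present in 3 member promoters, those of Ltb, Tnfrsf9 and Tnfrsf25, and in 1.41% of all 32851 promoters. The upstream windows of these 3 genes and of Tnf are printed 5′ to 3′ on the strand of the gene, with the match in capitals and no match in the window of Tnf. They lie at chr17:35194257-35194506 (Ltb, plus strand), chr4:150927749-150927998 (Tnfrsf9, plus strand), chr4:152115684-152115933 (Tnfrsf25, plus strand) and chr17:35202008-35202257 (Tnf, minus strand).
Ltb: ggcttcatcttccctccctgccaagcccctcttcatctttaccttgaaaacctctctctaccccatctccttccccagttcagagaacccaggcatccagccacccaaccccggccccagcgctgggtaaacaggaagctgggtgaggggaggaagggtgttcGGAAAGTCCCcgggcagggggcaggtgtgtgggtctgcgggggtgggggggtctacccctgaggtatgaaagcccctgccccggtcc
Tnfrsf9: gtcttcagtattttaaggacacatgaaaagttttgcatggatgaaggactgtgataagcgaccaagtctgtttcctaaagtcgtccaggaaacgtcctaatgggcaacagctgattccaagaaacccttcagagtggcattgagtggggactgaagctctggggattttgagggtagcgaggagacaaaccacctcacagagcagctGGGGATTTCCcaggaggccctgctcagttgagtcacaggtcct
Tnfrsf25: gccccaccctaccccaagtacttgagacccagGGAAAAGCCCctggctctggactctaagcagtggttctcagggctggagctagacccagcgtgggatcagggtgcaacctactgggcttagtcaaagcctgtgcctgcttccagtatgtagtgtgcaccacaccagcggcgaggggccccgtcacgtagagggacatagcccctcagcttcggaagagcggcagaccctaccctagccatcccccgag
Tnf: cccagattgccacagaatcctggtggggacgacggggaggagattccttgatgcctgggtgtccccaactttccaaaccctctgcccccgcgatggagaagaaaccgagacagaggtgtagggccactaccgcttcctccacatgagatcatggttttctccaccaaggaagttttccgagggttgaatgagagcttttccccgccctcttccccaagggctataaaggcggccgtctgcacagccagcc
The match began 87 bases before the start of Ltb, 43 bases before that of Tnfrsf9 and 218 bases before that of Tnfrsf25. Tnfrsf9 and Tnfrsf25 each had another start in the table, and its window held no match. A second form, TTCNNNGAA, the letters of the gamma-interferon activated site bound by STAT factors, was found in 8 member promoters, those of Fas, Lta, Ltb, Tnfrsf18, Tnfrsf1a, Tnfrsf1b, Tnfrsf25 and Tnfrsf9, and in 7.02% of all promoters. The median number of CpG dinucleotides per window was 8 in the members and 6 in all promoters. These matches describe letters in a window and not binding, and methylation was not measured in these libraries.

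KO lesions had lower mean levels of most TNF superfamily genes than WT lesions, in ligands and receptors alike. Of the 37 ligand and receptor genes that could be tested, 34 had a lower mean in KO and 12 were lower at an unadjusted p under 0.05 (edgeR's quasi-likelihood test). Those 34 were 91.9% of the members tested, while 48.6% of all tested genes had a negative fold change. Those 12 genes were 32.4% of the members tested, while 8.16% of all 18177 tested genes were lower by the same threshold. At the same threshold 0 members were higher, against 6.55% of all genes. After Benjamini-Hochberg adjustment over all genes 0 members passed, with adjusted p-values from 0.321 to 0.959, and 0.0055% of all genes passed in either direction. The 4 ligands among the 12 were Tnfsf8, Tnfsf9, Ltb and Cd40lg, and the 8 receptors were Tnfrsf25, Tnfrsf13c, Cd40, Tnfrsf23, Tnfrsf12a, Tnfrsf9, Tnfrsf14 and Eda2r. DESeq2's Wald test put 18 members lower without adjustment, against 10.9% of all genes, and 5 with it (Cd40, Tnfrsf13c, Tnfrsf25, Tnfsf8 and Tnfsf9), against 4.04%. Tnfrsf1b received no p there.

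The median log2 fold change, KO against WT, was -1.69 over the 13 tested ligands and -1.19 over the 24 tested receptors, beside 0.01 over all tested genes. These medians describe the members and are not tests, since the members of a family are not replicates of a genotype. Cd40lg, Tnfsf11, Tnfrsf25 and Tnfrsf13c passed the filter on low counts only through WT lesions, and Tnfrsf17 only through KO lesions, so those genes entered the test with a direction favoured. Among the other 32 members tested, 9 were lower, 8 were lower without overlap and the median was -1.0. The shares of all genes that passed the filter in the same way are not given, so these counts have no matching background. Ligands or receptors left untested for low counts were Fasl, Cd70, Lta, Tnfsf18, Edar and Cd27, none of which exceeded 1.35 CPM (the counts of a gene relative to the size of its library, scaled by TMM) in any lesion. With no filter on low counts the medians were -1.68 and -1.18. Tnfsf13os, the antisense transcript, was tested and had a log2 fold change of -0.44 with a standard error of 0.31.

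The count of lower members rested on particular lesions. Without WT replicate 2 it was 6, where 9.64% of all genes were lower (Tnfsf9, Cd40, Tnfrsf25, Tnfrsf13c, Tnfrsf12a and Eda2r). Without KO replicate 1 it was 2 (Tnfrsf25 and Tnfrsf13c, both of which passed the filter only through WT lesions), where 3.7% of all genes were lower, and without KO replicate 2 it was 4 (these genes, Cd40 and Lta), where 4.22% were. Without KO replicate 3 it was 16, and 12.4% of all genes were lower. Without WT replicate 1 it was 13 and without WT replicate 3 it was 16 (7.21% and 7.61% of all genes), with 9 of the 12 in each. Cd40lg, Tnfrsf12a and Eda2r were lost in the former, and Tnfrsf9, Tnfrsf12a and Eda2r in the latter. The medians without WT replicate 2 were -0.33 for ligands and -0.35 for receptors, beside 0.04 over all genes. Of the 37 members tested 29 then had a negative log2 fold change, and the share of all genes is not given for that setting.

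**Figure D1:**
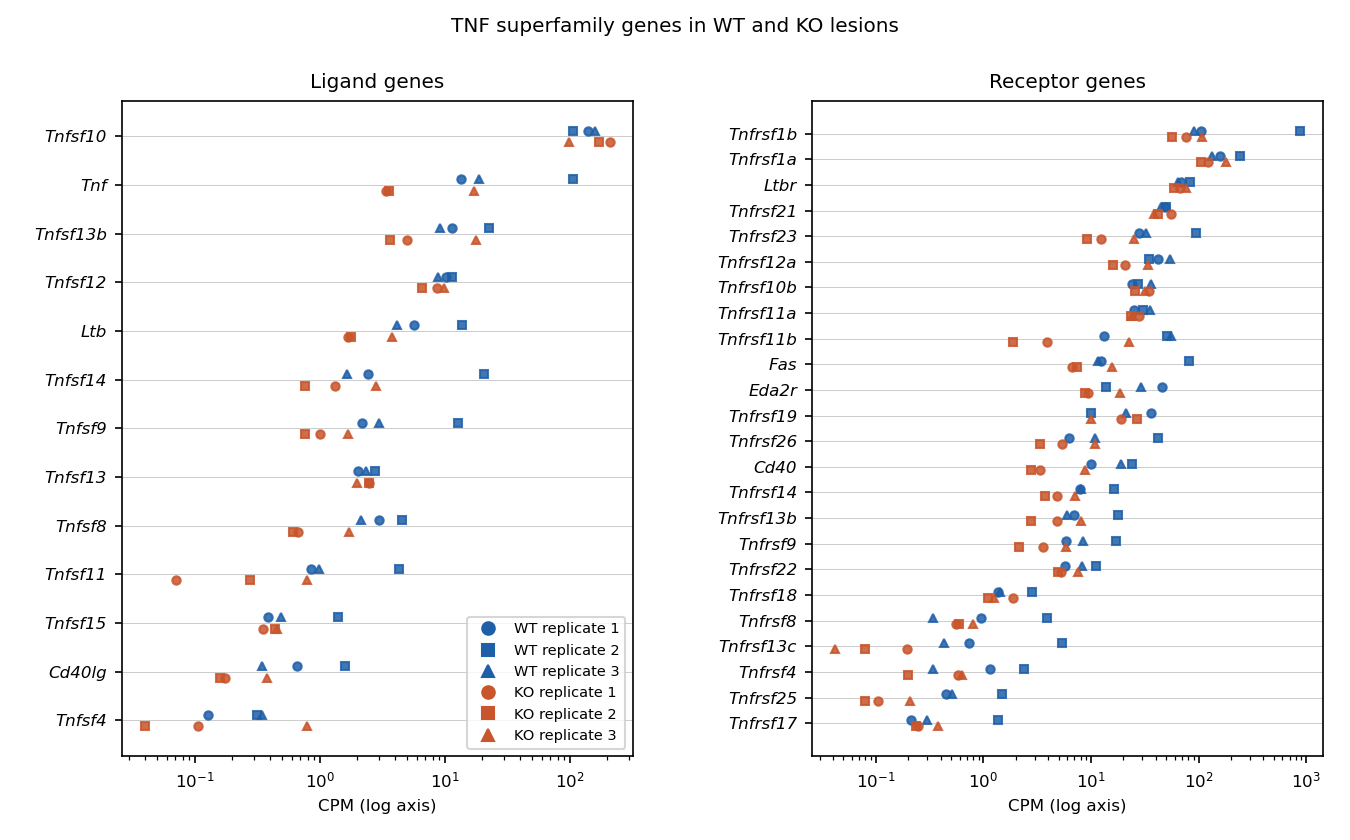
Level of each tested member in each lesion, in CPM on a log axis, ligands on the left and receptors on the right, WT in blue and KO in red, with 1 symbol shape for each replicate number and genes ordered by mean level. The blue square, WT replicate 2, lies farthest to the right for 28 of the 37 genes.

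The lesions also differed within each genotype. Dnmt3a itself was at 52.7, 43.9 and 51.7 CPM in WT replicates 1, 2 and 3 and at 30.3, 33.5 and 36.2 CPM in the KO replicates, with no overlap (p = 0.1 by an exact permutation test on both sides, the lower limit for 3 lesions against 3). On the log2 scale the fold change was -0.57 (standard error 0.14, edgeR, adjusted p = 0.321). Summed neutrophil markers, 8 of 8 tested, were at 10032 CPM in WT replicate 2 and between 43.3 and 498 CPM in the other lesions. Skeletal muscle markers, 5 of 6 tested, reached 25284 and 26978 CPM in WT replicates 1 and 3 and at most 14.0 CPM elsewhere, with Myh1 and Myh4 at 0 in at least 1 lesion, and pancreatic acinar markers reached 2739 CPM in WT replicate 3 alone. Markers of uterine epithelium (1485 to 2941 CPM) and of uterine stroma (2715 to 9190 CPM) were found in all 6 lesions, with only Foxa2 at 0 in KO replicate 3.

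T cell markers moved with the genotype, while summed B cell markers outside WT replicate 2 were close between the groups. Much of the B cell sum was Cd79b, and each other B cell marker was lower in every KO lesion than in every WT lesion. The 10 T cell markers summed to 38.7, 105 and 40.4 CPM in WT and to 9.35, 6.91 and 28.5 CPM in the KO lesions, and 9 of the 10 were lower in KO at an unadjusted p under 0.05. The 8 B cell markers summed to 17.0, 91.8 and 11.3 CPM in WT and to 10.7, 7.95 and 9.88 CPM in the KO lesions, and 6 of the 8 were lower, with Cr2 at 0 in at least 1 lesion, while Cd79b overlapped (unadjusted p = 0.237). The 8 macrophage markers summed to 1176, 2734 and 1175 CPM in WT and to 766, 550 and 1391 CPM in the KO lesions, where the groups overlapped and 0 of the 8 were lower by that threshold. The NK cell markers, 4 of 5 tested, overlapped too in sum, at 3.59 to 6.35 CPM in WT and at 2.94 to 4.03 CPM in the KO lesions. Of these 1, Klrk1, was lower (unadjusted p = 0.0254). Summed dendritic cell markers overlapped as well (43.2 to 53.3 CPM in WT, 35.2 to 52.7 CPM in KO), and 2 of the 6, Ccr7 and Xcr1, were lower. The part of these cells in the levels of TNF superfamily genes was not tested.

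Many members had their highest level in the same lesion. WT replicate 2 held the highest level of 28 of the 37 tested ligands and receptors, which is 75.7%, against 24.2% of all tested genes. KO replicate 2 held the lowest level of 24 members (64.9%, against 20.2% of all genes). Among the KO lesions alone, replicate 3 was the highest for 29 members (78.4%, against 37.7%). The groups did not overlap for 11 members, all of them lower in KO (8.74% of all genes were without overlap in that direction and 10.7% in the other).

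Tnf, the founding ligand, was found at 13.5, 106 and 18.8 CPM in WT replicates 1, 2 and 3 and at 3.40, 3.58 and 17.2 CPM in KO replicates 1, 2 and 3. KO replicate 3 lay above WT replicate 1, and the other KO lesions lay below every WT lesion. The mean was 5.73 times as high in WT as in KO, a log2 fold change of -2.52 with a standard error of 1.07 and a 95% interval from -5.14 to 0.10 (unadjusted p = 0.0569). Without WT replicate 2 the log2 fold change was -1.01.

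Tnfrsf1a and Tnfrsf1b encode the receptors of TNF, the former with a death domain and found on most cells, the latter found mostly on immune cells and endothelium. Tnfrsf1a was at 159, 241 and 134 CPM in WT and at 122, 105 and 179 CPM in the KO lesions. Its groups overlapped, and the log2 fold change was -0.39 with a 95% interval from -1.13 to 0.34. Tnfrsf1b was at 104, 869 and 90.6 CPM in WT and at 76.2, 56.7 and 108 CPM in the KO lesions. Only WT replicate 2, the lesion with the neutrophil markers, stood apart: the log2 fold change was -2.14 with all lesions (unadjusted p = 0.0661) and -0.28 without it. Lta, the gene of lymphotoxin alpha, which binds the same receptors, was near the limit of counting, with 12, 34 and 6 reads in WT and 4, 4 and 2 reads in KO lesions, and was not tested with all 6 lesions.

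Lymphotoxin beta and LIGHT form the axis of lymphoid tissue organisation. Ltb, expressed by lymphocytes, was found at 5.64, 13.7 and 4.16 CPM in WT and at 1.67, 1.79 and 3.81 CPM in the KO lesions, so that no KO lesion reached the lowest WT lesion. The log2 fold change was -1.69 (standard error 0.58, unadjusted p = 0.0267, adjusted p = 0.328), and -1.02 without WT replicate 2 (unadjusted p = 0.0787). Its window with the kappaB match is printed above. Ltbr, the receptor of the lymphotoxin heterotrimer on stromal and myeloid cells, was at 68.7, 82.6 and 63.7 CPM in WT and at 67.4, 58.5 and 76.1 CPM in the KO lesions. The groups overlapped throughout, and the 95% interval of its log2 fold change, from -0.48 to 0.30, was among the narrowest of the family.

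Tnfsf14, the gene of LIGHT, was at 2.43, 20.6 and 1.67 CPM in WT and at 1.33, 0.755 and 2.79 CPM in the KO lesions. KO replicate 3 lay above both WT replicates 1 and 3, and the log2 fold change, -2.34 with all lesions, was -0.33 without WT replicate 2. Tnfrsf14, the herpesvirus entry mediator and a further receptor of LIGHT, was at 7.92, 16.2 and 8.12 CPM in WT and at 4.84, 3.69 and 7.13 CPM in the KO lesions. These groups did not overlap, with a log2 fold change of -1.04 and a standard error of 0.40 (unadjusted p = 0.0390), and -0.62 without WT replicate 2.

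Among the costimulatory pairs, Cd40lg and Cd40 were both lower. Cd40lg, made mainly by activated helper T cells, was at 0.662, 1.60 and 0.342 CPM in WT and at 0.175, 0.159 and 0.375 CPM in the KO lesions. That is 31, 71 and 16 reads against 10, 8 and 18 reads, with KO replicate 3 above WT replicate 3. For Cd40lg the log2 fold change was -1.87 (standard error 0.70, unadjusted p = 0.0364), and -1.08 without WT replicate 2 (unadjusted p = 0.131). Cd40, its receptor on B cells, macrophages and dendritic cells, was at 10.1, 23.8 and 19.1 CPM in WT and at 3.33, 2.74 and 8.71 CPM in the KO lesions. The groups were separate and the mean was 3.59 times as high in WT. For Cd40 the log2 fold change was -1.84 (standard error 0.55, unadjusted p = 0.0158, adjusted p = 0.322), and it ranged from -2.54 to -1.55 when lesions were left out singly. It was also lower at an unadjusted p of 0.0456 without WT replicate 2.

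Tnfsf8, the ligand of CD30 on activated lymphocytes and myeloid cells, was at 2.99, 4.55 and 2.14 CPM in WT and at 0.667, 0.616 and 1.71 CPM in the KO lesions, without overlap. Its log2 fold change was -1.69 (standard error 0.54, unadjusted p = 0.0194), and -1.36 without WT replicate 2 (unadjusted p = 0.0587). The receptor Tnfrsf8 (CD30) was at 0.939, 3.87 and 0.342 CPM in WT and at 0.561, 0.596 and 0.792 CPM in the KO lesions, which overlapped. The log2 fold change of -1.40 moved to 0.02 without WT replicate 2, the lesion with the highest value.

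Tnfsf9, the ligand of 4-1BB, was at 2.18, 12.9 and 2.99 CPM in WT and at 1.00, 0.755 and 1.69 CPM in the KO lesions. All KO values lay under all WT values, and the log2 fold change was -2.39 (standard error 0.79, unadjusted p = 0.0229) and -1.17 without WT replicate 2 (unadjusted p = 0.0464). Tnfrsf9, the gene of 4-1BB, a receptor of activated T cells, was at 5.89, 17.2 and 8.46 CPM in WT and at 3.54, 2.15 and 5.88 CPM in the KO lesions. WT replicate 1 and KO replicate 3 almost touched, at 5.89 and 5.88 CPM. In Tnfrsf9 the log2 fold change was -1.45 (standard error 0.54, unadjusted p = 0.0361), and -0.89 without WT replicate 2 (unadjusted p = 0.115). Camta1 overlaps Tnfrsf9 on the opposite strand.

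The OX40 pair ran at low levels. Tnfsf4 (OX40 ligand) ranged from 0.128 to 0.342 CPM in WT and from 0.0397 to 0.792 CPM in the KO lesions, and Tnfrsf4 (OX40) from 0.342 to 2.39 CPM in WT and from 0.199 to 0.625 CPM in the KO lesions. In both genes the groups overlapped, and the log2 fold changes were 0.24 for Tnfsf4 and -1.46 for Tnfrsf4 with intervals that held 0. That of Tnfsf4 had no stable sign, since KO replicate 3 held 38 of its reads and the other KO lesions 6 and 2, and it was -1.80 without KO replicate 3. Tnfrsf18 (GITR), a receptor of regulatory T cells, had values from 1.37 to 2.84 CPM in WT and from 1.11 to 1.89 CPM in the KO lesions. Its ligand Tnfsf18 had at most 6 reads in a lesion. Cd27 and its ligand Cd70 were too low to test, with up to 60 reads of Cd27 in WT replicate 2 and up to 12 reads in any other lesion, and up to 4 reads of Cd70.

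**Figure D2:**
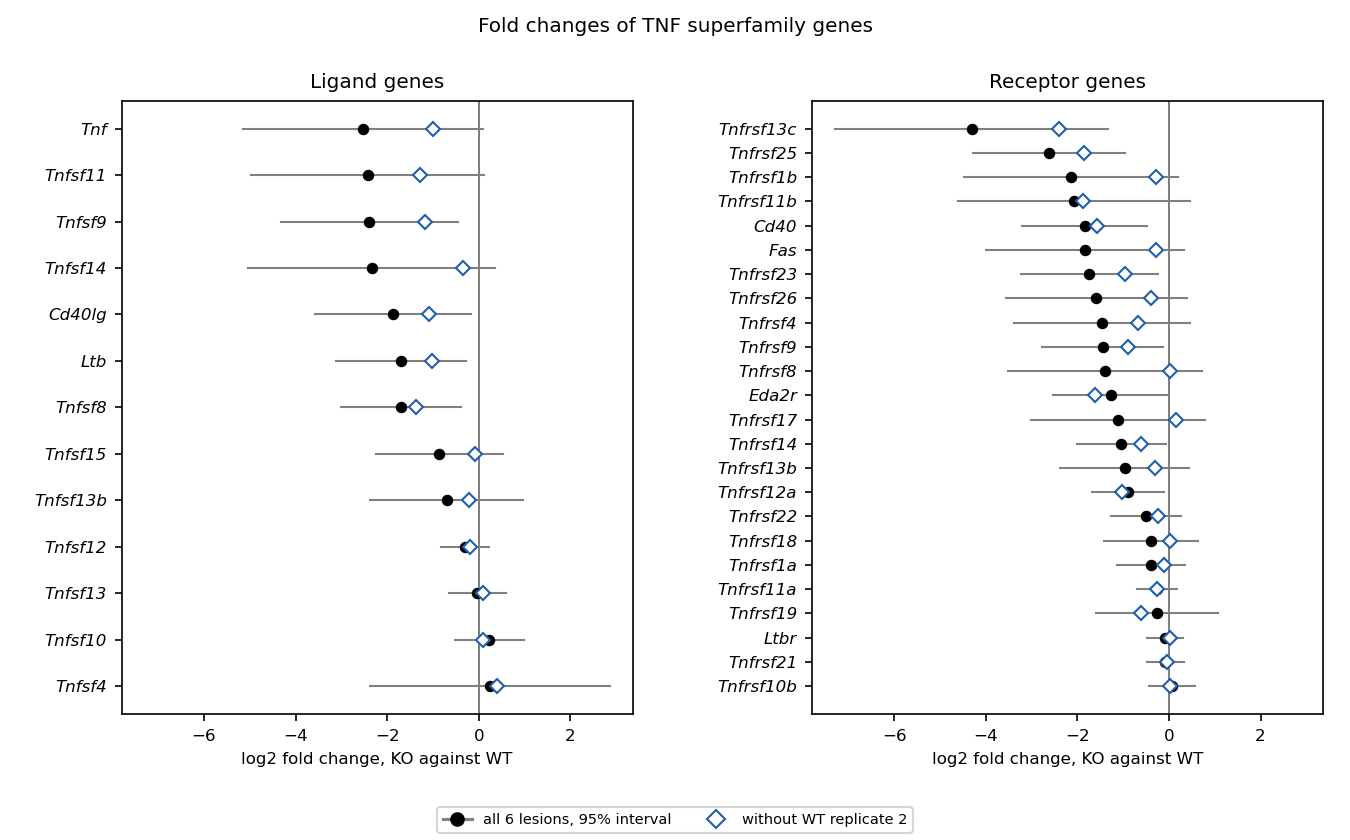
Log2 fold change of each tested member, KO against WT, with its 95% interval from edgeR (black points and grey lines) and the value without WT replicate 2 (open diamonds), ligands on the left and receptors on the right. Without WT replicate 2 the values of Tnf, Tnfsf14, Tnfrsf1b and Fas, among others, lie nearer to 0 by over 1. Those of Tnfrsf12a and Eda2r, among others, lie farther from 0.

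The ligands and receptors of B cell survival differed most at the receptor. Tnfrsf13c, the receptor of BAFF on mature B cells, was at 0.726, 5.31 and 0.427 CPM in WT and at 0.193, 0.0795 and 0.0417 CPM in the KO lesions, which is 34, 236 and 20 reads against 11, 4 and 2 reads. No KO lesion reached a WT lesion. The log2 fold change of -4.31 was the most negative of the family, with a standard error of 1.22 and a wide 95% interval from -7.29 to -1.32 (unadjusted p = 0.0124, adjusted p = 0.321). It was -2.41 without WT replicate 2 (unadjusted p = 0.0192). The summed B cell markers stood at 91.8 CPM in that lesion and at 7.95 to 17.0 CPM in the others. Apart from Cd79b, each B cell marker was lower in every KO lesion than in every WT lesion. The part of B cells in the level of Tnfrsf13c was not tested.

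The ligands lay closer together. Tnfsf13b (BAFF), made mainly by myeloid and stromal cells, was at 11.3, 22.6 and 9.14 CPM in WT and at 5.02, 3.66 and 17.8 CPM in the KO lesions, with KO replicate 3 above all but 1 WT lesion. Its log2 fold change of -0.70 ranged from -1.72 to -0.21 when lesions were left out singly. Without KO replicate 3 it was lower at an unadjusted p under 0.05. Tnfsf13 (APRIL) ranged from 2.01 to 2.75 CPM in WT and from 2.00 to 2.46 CPM in the KO lesions. Its log2 fold change of -0.03 had a 95% interval from -0.66 to 0.59. Gene models of Tnfsf12, Tnfsf13, their readthrough Tnfsfm13 and the antisense Tnfsf13os overlap, so the division of reads between them is uncertain.

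Tnfrsf13b (TACI), the regulatory receptor of B cells and plasma cells, was at 6.92, 17.8 and 5.94 CPM in WT and at 4.82, 2.78 and 8.09 CPM in the KO lesions. The groups overlapped, with a log2 fold change of -0.97 that was -0.30 without WT replicate 2. Tnfrsf17, the gene of BCMA on plasma cells, was at 0.213, 1.35 and 0.299 CPM in WT and at 0.246, 0.238 and 0.375 CPM in the KO lesions, and its sign turned from -1.11 to 0.16 without WT replicate 2. Plasma cell markers, 5 of 5 tested, summed to between 396 and 1025 CPM in WT and between 466 and 573 CPM in the KO lesions. A large part of that sum was Xbp1, at 237 to 406 CPM (unadjusted p = 0.115). Jchain and Mzb1 were lower in KO (unadjusted p = 0.0308 and 0.0303), and 0 of the 5 were higher at an unadjusted p under 0.05.

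The apoptosis receptor Fas stood apart in WT replicate 2 alone. It was at 12.4, 82.1 and 11.6 CPM in WT and at 6.65, 7.45 and 15.7 CPM in the KO lesions, a log2 fold change of -1.83 that was -0.27 without WT replicate 2. Its ligand Fasl, of cytotoxic lymphocytes, had 12, 20 and 4 reads in WT and 4, 2 and 6 reads in KO lesions and was not tested. Tnfsf10 (TRAIL), which triggers apoptosis through death receptors, was the most abundant ligand and went the other way, at 141, 106 and 159 CPM in WT and at 208, 170 and 99.4 CPM in the KO lesions. The groups overlapped, and the log2 fold change of 0.23 had a 95% interval from -0.52 to 0.98.

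Tnfrsf10b, the mouse death receptor of TRAIL, was at 24.2, 27.2 and 35.9 CPM in WT and at 34.8, 25.6 and 31.5 CPM in the KO lesions. On the log2 scale the fold change was 0.07 with a 95% interval from -0.42 to 0.57, so a log2 fold change of 1 in either direction lay outside it. Tnfrsf21 (death receptor 6) was likewise close, from 44.7 to 49.6 CPM in WT and from 38.1 to 55.0 CPM in the KO lesions.

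Tnfrsf22, Tnfrsf23 and Tnfrsf26 are neighbouring paralogs on chromosome 7, the former pair known as decoy receptors of TRAIL, and reads of such relatives may be divided uncertainly. Tnfrsf23 was at 28.1, 94.7 and 32.5 CPM in WT and at 12.4, 9.26 and 24.9 CPM in the KO lesions, without overlap. Its log2 fold change was -1.74 (standard error 0.61, unadjusted p = 0.0294), and -0.96 without WT replicate 2. Tnfrsf26 was at 6.30, 41.6 and 10.9 CPM in WT and at 5.39, 3.34 and 10.8 CPM in the KO lesions, with -1.59 on the log2 scale for all lesions and -0.40 without WT replicate 2. Tnfrsf22 ranged from 5.74 to 11.2 CPM in WT and from 4.97 to 7.48 CPM in the KO lesions.

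Tnfrsf25 (death receptor 3), a death domain receptor found mainly on T cells, passed the filter on low counts only through WT lesions. It was at 0.448, 1.49 and 0.513 CPM in WT and at 0.105, 0.0795 and 0.208 CPM in the KO lesions, which is 21, 66 and 24 reads against 6, 4 and 10 reads. Each WT lesion exceeded each KO lesion. The log2 fold change was -2.62 (standard error 0.68, unadjusted p = 0.00821, adjusted p = 0.321), and it ranged from -3.10 to -1.86 when lesions were left out singly. Tnfsf15, its ligand, was at 0.384, 1.40 and 0.491 CPM in WT and at 0.351, 0.437 and 0.458 CPM in the KO lesions. That difference was -0.86 on the log2 scale and -0.08 without WT replicate 2. The summed T cell markers had no overlap either (38.7 to 105 CPM in WT, 6.91 to 28.5 CPM in KO), and their part in the levels of Tnfrsf25, Cd40lg, Tnfsf8 and Ltb was not tested.

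**Figure D3:**
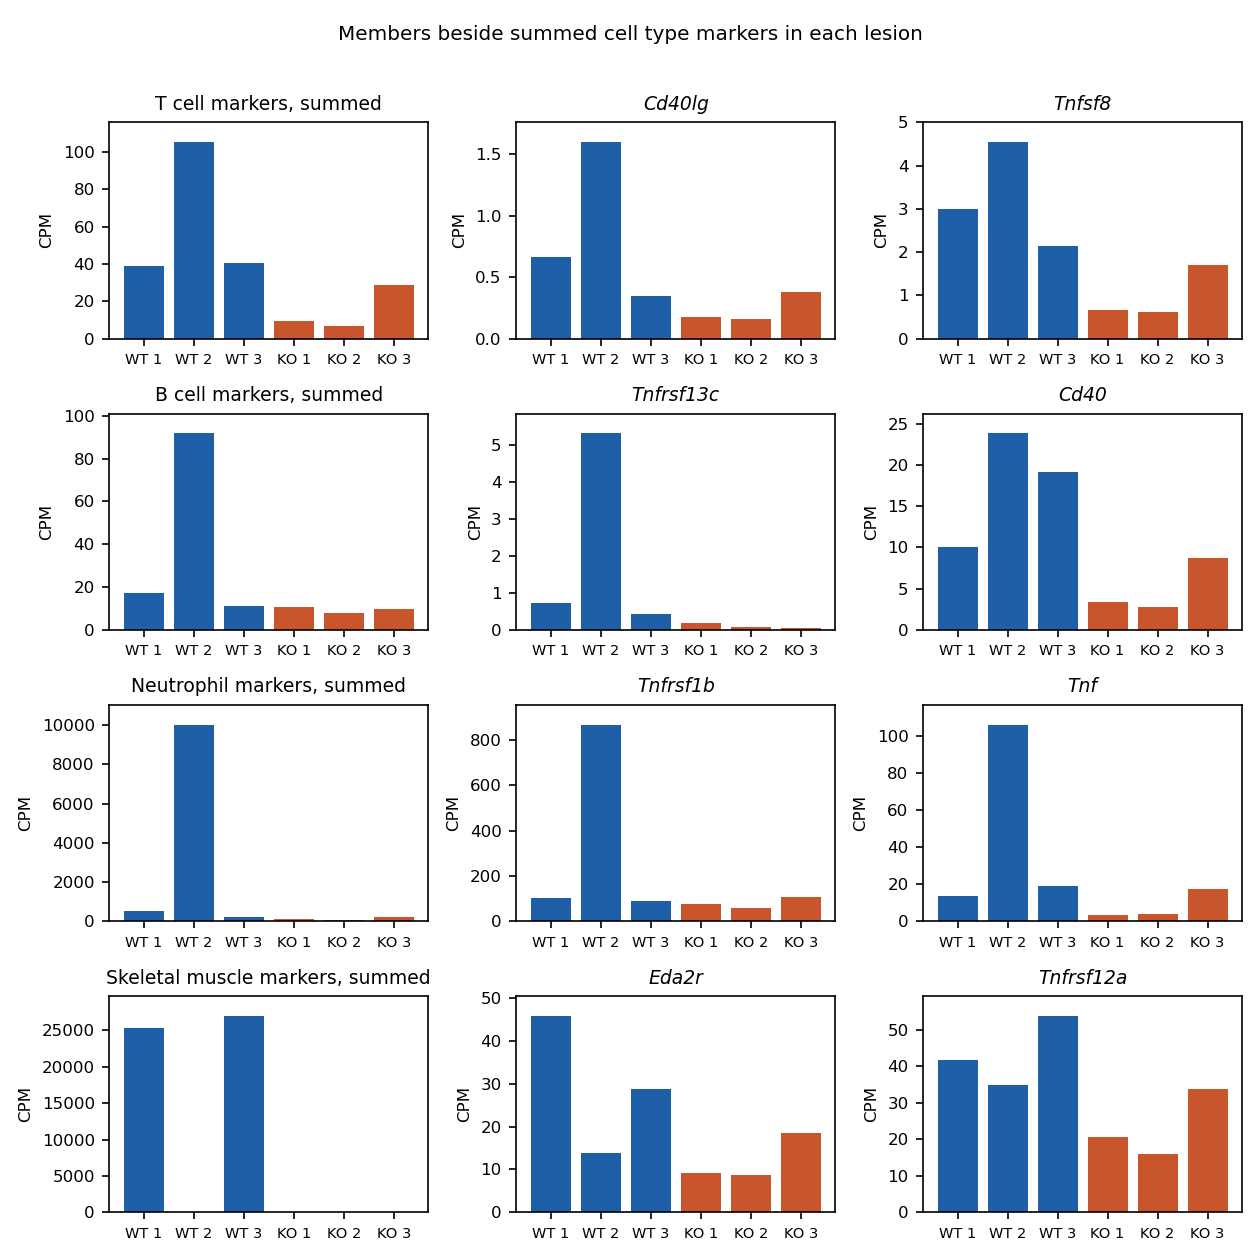
Summed CPM of T cell, B cell, neutrophil and skeletal muscle markers (left column, from the top) in each lesion, beside the CPM of 2 members drawn in the same row, WT in blue and KO in red, on linear axes that start at 0 and differ between panels. Tnfrsf1b and Tnf peak in WT replicate 2 with the neutrophil markers, and Eda2r and Tnfrsf12a are highest in WT replicates 1 and 3, which hold the skeletal muscle markers.

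The RANKL system, known for bone resorption and for mammary gland growth under progesterone, had lower means in KO for its ligand and its decoy. Tnfsf11 (RANKL) was at 0.854, 4.28 and 0.982 CPM in WT and at 0.0702, 0.278 and 0.792 CPM in the KO lesions, that is 40, 190 and 46 reads against 4, 14 and 38 reads. The groups did not overlap, although KO replicate 3 came close to WT replicate 1. On the log2 scale the fold change was -2.42 (standard error 1.04, unadjusted p = 0.0584), and it was -1.28 without WT replicate 2 (unadjusted p = 0.225) and -3.54 without KO replicate 3 (unadjusted p = 0.0288). Tnfrsf11b (osteoprotegerin), the secreted decoy of RANKL, was at 13.2, 50.2 and 55.9 CPM in WT and at 3.93, 1.87 and 22.5 CPM in the KO lesions. KO replicate 3 lay above WT replicate 1, the log2 fold change was -2.08 (unadjusted p = 0.0925), and it was -1.87 without WT replicate 2. It ranged from -3.77 without KO replicate 3 (unadjusted p = 0.00649) to -1.59 without KO replicate 2 (unadjusted p = 0.166). Tnfrsf11a (RANK), the signalling receptor, was at 24.8, 30.3 and 35.5 CPM in WT and at 28.0, 23.6 and 23.9 CPM in the KO lesions. The groups overlapped, and the 95% interval around its log2 fold change of -0.26 ran from -0.69 to 0.17.

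Tnfrsf12a and Eda2r had another order of lesions than most members. Tnfrsf12a (Fn14), the TWEAK receptor induced in injured epithelium and muscle, was at 41.7, 34.8 and 53.8 CPM in WT and at 20.7, 16.0 and 33.7 CPM in the KO lesions. The groups did not overlap, and the log2 fold change was -0.89 (standard error 0.32, unadjusted p = 0.0322) and -1.02 without WT replicate 2. Its ligand Tnfsf12 (TWEAK) was at 10.2, 11.5 and 8.84 CPM in WT and at 8.60, 6.58 and 9.77 CPM in the KO lesions, a log2 fold change of -0.29 with overlap.

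Eda2r, the receptor of ectodysplasin A2 and known from skeletal muscle and skin appendages, was at 45.8, 13.9 and 28.9 CPM in WT and at 9.28, 8.78 and 18.6 CPM in the KO lesions. WT replicate 2 lay under KO replicate 3, the reverse of its place for most members. Its log2 fold change was -1.27 (standard error 0.51, unadjusted p = 0.0471). Without WT replicate 2 it was -1.61 (unadjusted p = 0.0105) and without WT replicate 1 it was -0.81 (unadjusted p = 0.158). It also missed the threshold without WT replicate 3 (unadjusted p = 0.0904), without KO replicate 1 (unadjusted p = 0.138), without KO replicate 2 (unadjusted p = 0.132) and under upper quartile scaling (unadjusted p = 0.0592). WT replicates 1 and 3, where Eda2r and Tnfrsf12a were highest, are the lesions with skeletal muscle markers at 25284 and 26978 CPM, and the part of muscle in these values was not tested. Tnfrsf19 (TROY), a receptor of epithelial and neural progenitors, was highest in WT replicate 1 at 35.8 CPM and, among KO lesions, in replicate 2 at 26.9 CPM, with a log2 fold change of -0.25 and overlapping groups. Edar, the receptor of ectodysplasin A1, was near 0, with at most 8 reads in a lesion.

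Set side by side, ligands and receptors were compared in 24 known pairs, of which 19 had both partners tested. Both partners were more abundant in WT in 17 of these pairs. That number was smaller without WT replicate 2, where the log2 fold changes of Ltbr, Tnfrsf8, Tnfsf13 and Tnfrsf17 turned positive (0.026, 0.021, 0.091 and 0.157). The ligand had the more negative log2 fold change in 10 pairs and the receptor in 9, and many pairs share a gene, so these counts are a description and the difference between partners was not tested. Both partners were lower at an unadjusted p under 0.05 in 2 pairs, Cd40lg with Cd40 and Tnfsf9 with Tnfrsf9, and in neither without WT replicate 2. The ligand stood lower than its receptor for Tnf with Tnfrsf1a (-2.52 and -0.39), Ltb with Ltbr (-1.69 and -0.09) and Tnfsf11 with Tnfrsf11a (-2.42 and -0.26). In the opposite order were Tnfsf13b with Tnfrsf13c (-0.70 and -4.31), Tnfsf15 with Tnfrsf25 (-0.86 and -2.62) and Tnfsf12 with Tnfrsf12a (-0.29 and -0.89).

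**Figure D4:**
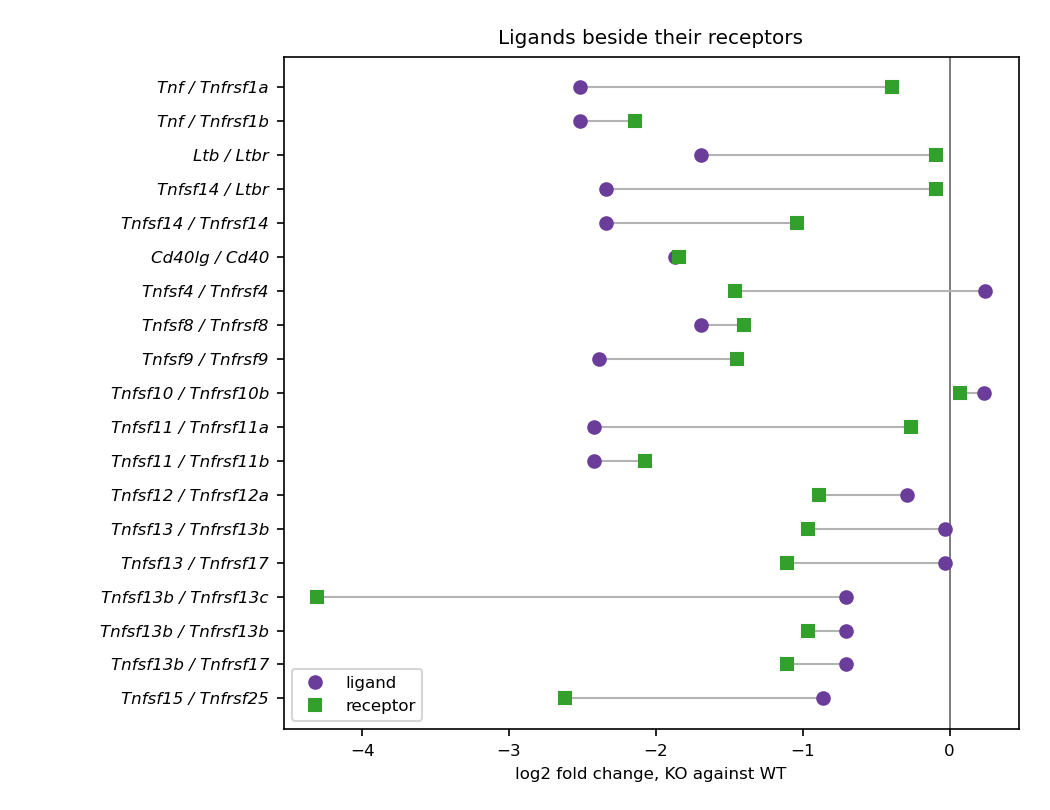
Log2 fold change, KO against WT, of the ligand (purple circle) and the receptor (green square) in the 19 known pairs with both partners tested, joined by a line, with a vertical line at 0. Ltbr, Tnfrsf1a, Tnfrsf11a and Tnfrsf10b lie between -0.39 and 0.07, and the only pair with both symbols above 0 is Tnfsf10 with Tnfrsf10b.

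Levels between genes were compared per kilobase of exon model, as CPM per kilobase averaged over the 6 lesions. By this mean Tnfrsf1a at 60.5 and Tnfrsf1b at 56.99 were the most abundant receptors, followed by Ltbr at 29.5 and Tnfrsf12a at 17.3. The place of Tnfrsf1b rested on WT replicate 2, and in every other lesion Ltbr lay above Tnfrsf1b. Among ligands Tnfsf10 led at 28.0, followed by Tnf at 16.5, Tnfsf12 at 6.11 and Ltb at 3.39. The order of neighbours was not fixed across lesions. Tnfrsf1b ran from 14.9 to 228 and Tnfrsf1a from 40.5 to 93.1 on this scale, so these genes overlapped, and Tnf, from 2.08 to 64.7, overlapped both Tnfsf12 (4.34 to 7.61) and Tnfsf10 (18.9 to 39.5).

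Ligand and receptor genes lie on 15 chromosomes, and chromosomes 4 and 17 hold the most, with 9 and 8 genes. Chromosome 17 has the neighbours Tnf, Lta and Ltb, together with Tnfsf9, Tnfsf14, Cd70, Tnfrsf12a and Tnfrsf21. Of these, Tnfrsf21 had a log2 fold change of -0.08 beside -2.39 for Tnfsf9, so genes of the same chromosome differed widely. On chromosome 4 Tnfrsf25 and Tnfrsf18 ran from -2.62 to -0.40.

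Downstream of the receptors, 48 genes of TNF receptor signalling were examined: TRAF adapters, kinases, ubiquitin ligases, caspases, NF-kappaB subunits and their feedback inhibitors. All 48 were tested, 12 were lower in KO at an unadjusted p under 0.05 (8.16% of all genes) and 1 was higher (6.55% of all genes), and 0 passed after adjustment. WT replicate 2 held the highest level of 32 of them (66.7%, against 24.2% of all genes). The median log2 fold change was -0.27, and 18 of the genes were lower and 1 higher without overlap between the groups (8.74% and 10.7% of all genes). The count of lower genes was 11 when WT replicate 2 was left out (9.64% of all genes), 3 when KO replicate 1 was (3.7%) and 1, Tab2, when KO replicate 2 was (4.22%).

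Tnfaip3 (A20), an inhibitor of NF-kappaB, was at 47.0, 492 and 68.1 CPM in WT and at 15.1, 11.8 and 30.7 CPM in the KO lesions, a log2 fold change of -3.40 (unadjusted p = 0.0169) and of -1.58 without WT replicate 2 (unadjusted p = 0.0159). Birc3, a ubiquitin ligase of the receptor complex, was at 49.4, 204 and 65.1 CPM in WT and at 35.5, 31.7 and 37.2 CPM in the KO lesions. For Birc3 the log2 fold change was -1.61, and -0.72 without WT replicate 2 (unadjusted p = 0.00691). The inhibitors Nfkbie and Tnip1 had log2 fold changes of -1.70 and -1.49, and the NF-kappaB subunits Nfkb2 and Relb of -1.28 and -1.25, each without overlap between the groups. Without WT replicate 2 these were -0.99, -0.73, -0.67 and -0.63, with an unadjusted p of 0.0369, 0.00497, 0.0192 and 0.0194.

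Other genes of the list differed by less with a narrower spread. Tab2, which links TRAF proteins to the kinase TAK1, was at 133, 148 and 148 CPM in WT and at 107, 106 and 105 CPM in the KO lesions. With a standard error of 0.11 its log2 fold change was -0.43 (unadjusted p = 0.00759), and it was lower without each of the lesions in turn. Traf3, an adapter that restrains noncanonical NF-kappaB, was at -0.50, the death agonist Bid at -0.47 and the necroptosis effector Mlkl at -0.65, which became -0.46 without WT replicate 2 (unadjusted p = 0.0611). Ikbkg, the regulatory subunit of the IkappaB kinase and named here after its values were seen, was the higher gene, at 57.5, 57.2 and 53.9 CPM in WT and at 70.4, 72.6 and 62.8 CPM in the KO lesions. On the log2 scale the fold change was 0.29 (unadjusted p = 0.0407). Traf1, an adapter of the same receptors, stood at 0.03 with a wide interval from -1.57 to 1.64.

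**Figure D5:**
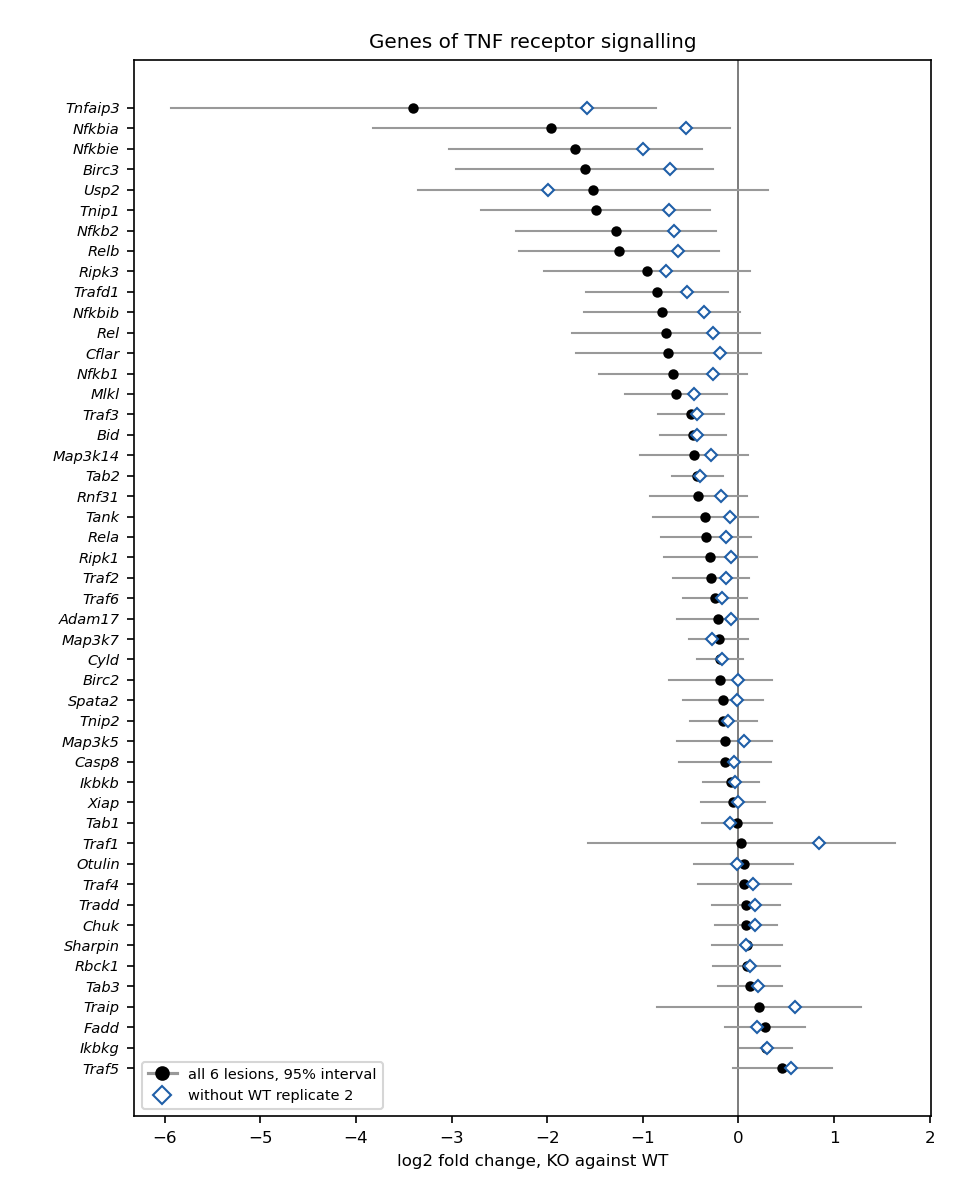
Log2 fold change of the 48 genes of TNF receptor signalling, KO against WT, with 95% intervals from edgeR (black points and grey lines) and the value without WT replicate 2 (open diamonds). The intervals of 12 genes lie wholly under 0, led by Tnfaip3 at -3.40, and that of Ikbkg lies above 0.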

How the data were processed

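Members and gene lists were chosen with earlier results of these data known. The authors deposited raw counts of reads per gene for 56884 genes in 6 libraries, with totals of 45370342 to 57239184 per library. The submitters' processing notes name Trimmomatic, featureCounts, DESeq2 and GRCm39, while the methods give GRCm38. The aligner and annotation are not given in the sources used here. Symbols and exon lengths came from GENCODE M21 on GRCm38, where 51948 identifiers matched without their version, and unmatched identifiers held 3.04% to 3.56% of the counts. Of genes with 1 to 20 counts, 89.2% to 90.6% had an even count, against 58.8% to 61.4% of genes over 200 counts. If both mates of a fragment were counted, counting error is larger than the counts imply.

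The test was edgeR 4.0.16 under R 4.3.3. Genes with a CPM of at least 0.206, which is 10 counts in the median library, in 3 or more libraries were tested (18177 genes), TMM factors scaled the libraries, and genotype was the only term of the quasi-likelihood fit over all tested genes. P-values were adjusted over all of them by the Benjamini-Hochberg method. The common biological coefficient of variation was 44.2%. Standard errors and 95% intervals came from the same fit, and CPM values carry no prior count. P-values measure the spread between 3 lesions per genotype, which the methods trace to separate donors. The method was tested on simulated data with known changes before use.

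Values per lesion were given for members with an unadjusted p under 0.05, for members with groups that did not overlap and a mean of at least 1 CPM, for the 4 ligands and 4 receptors of highest level per kilobase, for members of at least 1 CPM whose log2 fold change moved by over 1 when 1 lesion was left out, and for the tested partners of all these, 30 members in all. Others were given by range, by single lesions (Tnfrsf19) or, where their counts are low, by reads. Of the signalling list at most 10 genes were named by p, and Nfkbia and Trafd1 were the other lower genes, while Ikbkg and Traf1 were added after their values were seen. Alternatives were scaling by DESeq2 size factors or by upper quartile, no filter, a minimum of 10 counts in all 6 libraries, the Wald test of DESeq2 1.42.0, voom with quality weights of limma 3.58.1, the replicate number as a block, and each lesion left out. Counts halved and rounded were added after seeing the data. Windows of 250 bases before each start came from RefSeq on GRCm38.p6, and no protein sequences were used here.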

Additional observations from a re-analysis of the deposited data

How the results depend on the processing

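The count of lower members was 12 and ranged from 2 to 16 with each lesion left out in turn. DESeq2 size factors, upper quartile scaling, no filter, a minimum of 10 counts in all 6 libraries, DESeq2, voom and halved counts kept it between 9 and 18. The number of members tested in these settings ranged from 32 to 43. Of all genes 10.9% were lower by DESeq2 (18 members) and 15.9% by voom (16 members), against 8.16% in the main fit. Shares of all genes in the other settings are not given, so their counts cannot be compared with the 12. The median of ligands ranged from -2.20 to -0.33 and that of receptors from -1.52 to -0.35 with each lesion left out. Lower members without overlap numbered 10 to 25 and higher ones 0 to 1 with each lesion left out, and lower ones 9 under upper quartile scaling. Groups separate more easily with fewer lesions. The shares of all genes without overlap in these settings are not given, so those counts cannot be set beside the count with all lesions. Lower signalling genes numbered 1 to 15 with each lesion left out, where 3.7% to 12.4% of all genes were lower. The higher signalling gene, 1 with all lesions, became 0 to 2 with each lesion left out, 2 under upper quartile scaling, 0 without the filter and 2 with voom. Dnmt3a had a log2 fold change of -0.58 by DESeq2, where it passed the adjusted threshold, and of -0.65 to -0.50 with each lesion left out. The cause of these changes was not tested, apart from the smaller number of lesions.

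The labels share replicate numbers between groups, but same-numbered lesions correlated at 0.03, -0.15 and -0.20 in their deviations from the group means, so the numbers were not taken to pair them. With the replicate number as a block, 5 members were lower (4.33% of all genes), of which 4 were among the 12, and the signalling list had 1 lower and 0 higher genes.

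Some named members changed sign. Ltbr was at 0.0045 under upper quartile scaling, which shifted the median of all genes to 0.11 and left 31 of 37 members below 0, and ranged from -0.19 to 0.026 (0.0059 without KO replicate 2) with each lesion left out. With each lesion left out Tnfrsf10b ranged from -0.042 to 0.23 (-0.023 without KO replicate 1), Tnfsf10 from -0.0082 to 0.48, Tnfrsf17 from -1.52 to 0.16 and Tnfrsf8 from -1.91 to 0.021. Of the members given by range, Tnfsf4 (-1.80 to 0.77), Tnfrsf19 (-0.61 to 0.26), Tnfsf13 (-0.14 to 0.09), Tnfrsf18 (-0.66 to 0.03) and Tnfrsf21 (-0.25 to 0.03) also changed sign. Over all named members and alternatives, 338 values kept direction and side of the threshold, 41 no longer passed it, 26 newly passed it and 8 turned sign. The 338 include Tnfrsf1b by DESeq2, which received no p and was counted by direction alone. Members with under 20 counts in most lesions, such as Lta, Fasl and Cd70, are limited by depth.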
